A study of Mus musculus with 4 samples.

Results

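The genes described here are 10 chemokine ligands, Ccl1, Ccl3, Ccl4, Ccl5, Ccl6, Ccl9, Cxcl2, Cxcl10, Xcl1 and Pf4. They were taken by name, and all 10 were found among the 18194 mouse genes that the array reports with a probe set of 1 gene symbol. A gene with several probe sets is given by its brightest one (the highest mean of the 4 arrays), and the others serve as a check. The assay was Affymetrix expression arrays, and the cells were group 2 innate lymphoid cells (ILC2), lymphocytes without rearranged antigen receptors that are known for type 2 cytokines. The groups were 2 arrays from Ets1-deleted mice and 2 from littermate controls, all on the C57BL/6 strain. Ets1, a DNA-binding protein, is the founding member of the ETS transcription factors. How the deletion was made, which cells carried it, the age of the mice and whether animals were pooled are not stated in the labels. All 4 samples shared the same culture, 2 weeks with the cytokines IL-7 and IL-33 on OP9-DL1, a stromal line that shows a Notch ligand, and the same sort for ICOS. The comparison, Ets1-deleted against control, addresses which chemokine genes differ with Ets1 in these developing cells.

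Array medians lay between 96.5 and 97.7 intensity units. The 10873 genes whose mean over the arrays reached 97.44 units, the median over all probe sets, were tested with limma. Of these, 2900 (26.7%) passed an adjusted p of 0.05. Ets1 itself read 138.1 and 180.2 units on the Ets1-deleted arrays, against 1272 and 1231 on the control arrays. The cells gave bright signals of the ILC2 genes Gata3 (3032 and 2828 units in Ets1-deleted cells, 2807 and 2741 in controls), Il7r, Il2ra, Il5 and Il13, but of 13 tested ILC2 genes 7 rose and 4 fell. Thy1, Arg1, Rora, Il17rb and Il2ra rose by 1.91, 1.56, 1.29, 0.93 and 0.81, and Klrg1, a marker of mature ILC2, fell by 1.60 on the log2 scale. Il1rl1 was not analysed here. Nothing says that the 2 arrays of a group came from separate animals or cultures, so the p-values cover the spread between arrays, part or all of which may be technical. With 2 arrays in each group, 0.333 is the smallest p that an exact permutation test allows. In samples of this kind, fewer cells of a type and less RNA per cell cannot be told apart.

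Chemokines are small secreted proteins that bind to matrix sugars and guide leukocytes through G protein-coupled receptors. They are sorted into CC, CXC and C classes by the spacing of their first cysteines, and many of their genes lie side by side in clusters. Lymphocytes such as NK cells, activated T cells and ILC are known sources of Ccl3, Ccl4, Ccl5 and Xcl1, and mouse ILC2 of Ccl1. Myeloid cells are known sources of Ccl6, Ccl9, Cxcl2 and Cxcl10, and megakaryocytes of Pf4, which platelets store.

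Ccl3, Xcl1, Pf4, Ccl6 and Ccl9 rose in the Ets1-deleted cells, by log2 differences between 0.81 and 1.58. Cxcl10 (0.29) and Cxcl2 (-0.15) did not pass the test, and Ccl1, Ccl4 and Ccl5 were too dim to be tested. So 7 of the 10 genes reached the limit for testing, and of these 5 were called higher and 0 lower in limma, where 13.9% of all tested genes were called higher. The 5 were each at least 1.5-fold higher, a limit that 7.06% of all tested genes passed. At an unadjusted p of 0.05 the counts were 6 higher and 0 lower, where 19.1% of all tested genes were higher. Both Ets1-deleted arrays lay above both control arrays for 9 of all 10 genes, against 26.4% of the 18194 genes. The median log2 difference over all 10 genes was 0.68, beside -8e-04 over all genes. The 10 genes were chosen with earlier results of these data known, so these counts describe the group and are not independent evidence of its direction. In the class of CC chemokines all 6 genes had Ets1-deleted values above the control values, 3 were tested and 3 rose. In the CXC class 3 were tested and 1 rose, and Xcl1 is the 1 gene of the C class.

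**Figure D1:**
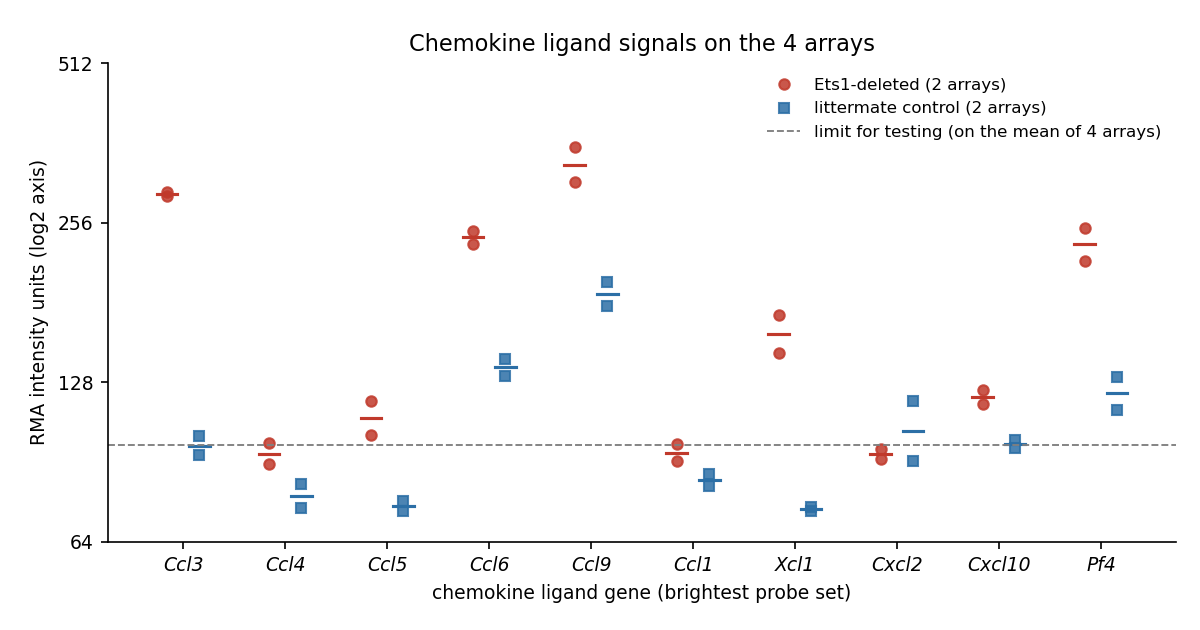
RMA intensity units on a log2 axis for the 10 chemokine ligand genes, with 1 point per array (red circles Ets1-deleted, blue squares control), a short line at each group's mean of log2 values, and a dashed line at the limit of 97.44 units that the mean of 4 arrays had to reach. The red points lie above the blue ones for every gene but Cxcl2, and the control points of Ccl3, Cxcl10, Ccl4, Ccl5, Ccl1 and Xcl1 lie near or under the dashed line.

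The promoters of the genes that rose are shown with that of Cxcl2, whose groups overlapped, so that the sequences next to the start sites can be set beside the values. Each runs from 250 bases before the start site to 50 after it, from RefSeq on build GRCm38.p6, 5′ to 3′ on the strand of the gene. Of the 10 genes, 8 had an entry, and Ccl4 and Ccl5 had none. Capitals mark matches, on either strand, to any of CCGGAAGT and AGGAAG (ETS factors), TGANTCA (AP-1) and an NF-kB motif of 10 bases that starts with GGG and ends with CC, with any bases between.
Ccl3, chr11:83649329-83649628, minus strand: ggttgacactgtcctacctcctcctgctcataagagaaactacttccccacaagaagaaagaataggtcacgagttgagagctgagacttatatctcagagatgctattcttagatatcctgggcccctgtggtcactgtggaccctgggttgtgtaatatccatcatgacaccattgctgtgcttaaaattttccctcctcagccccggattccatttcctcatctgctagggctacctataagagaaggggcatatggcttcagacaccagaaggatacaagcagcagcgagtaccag
Xcl1, chr1:164935473-164935772, minus strand: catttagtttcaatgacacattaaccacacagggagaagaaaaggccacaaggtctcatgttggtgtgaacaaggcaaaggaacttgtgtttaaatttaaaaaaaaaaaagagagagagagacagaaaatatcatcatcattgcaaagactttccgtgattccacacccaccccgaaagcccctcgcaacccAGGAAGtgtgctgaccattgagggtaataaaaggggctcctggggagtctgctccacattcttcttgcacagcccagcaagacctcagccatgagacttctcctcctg
Pf4, chr5:90772185-90772484, plus strand: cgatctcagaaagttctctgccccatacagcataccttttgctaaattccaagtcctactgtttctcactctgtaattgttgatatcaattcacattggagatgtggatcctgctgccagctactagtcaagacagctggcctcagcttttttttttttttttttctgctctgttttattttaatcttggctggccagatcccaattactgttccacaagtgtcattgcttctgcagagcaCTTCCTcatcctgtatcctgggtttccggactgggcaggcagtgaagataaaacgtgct
Ccl6, chr11:83593038-83593337, minus strand: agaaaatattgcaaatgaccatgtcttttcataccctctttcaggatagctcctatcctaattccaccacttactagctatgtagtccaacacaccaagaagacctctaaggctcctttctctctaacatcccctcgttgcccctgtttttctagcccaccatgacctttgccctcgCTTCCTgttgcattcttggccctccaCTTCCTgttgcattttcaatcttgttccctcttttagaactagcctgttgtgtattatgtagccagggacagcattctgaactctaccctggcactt
Ccl9, chr11:83578587-83578886, minus strand: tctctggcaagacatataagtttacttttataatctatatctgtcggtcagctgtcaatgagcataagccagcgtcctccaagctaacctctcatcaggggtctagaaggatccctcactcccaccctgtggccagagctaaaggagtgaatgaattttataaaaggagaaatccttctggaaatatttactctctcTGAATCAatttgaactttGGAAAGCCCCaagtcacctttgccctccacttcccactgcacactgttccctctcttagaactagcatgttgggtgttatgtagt
Cxcl2, chr5:90903649-90903948, plus strand: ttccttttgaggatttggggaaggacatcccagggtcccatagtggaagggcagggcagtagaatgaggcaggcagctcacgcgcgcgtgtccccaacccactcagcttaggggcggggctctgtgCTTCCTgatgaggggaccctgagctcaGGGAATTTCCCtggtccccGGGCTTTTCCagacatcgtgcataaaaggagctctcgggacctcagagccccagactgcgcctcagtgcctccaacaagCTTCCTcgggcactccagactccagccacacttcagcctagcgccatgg

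The long ETS motif CCGGAAGT was in 0 of the 8 promoters and in 3.89% of 32851 mouse promoters of this length. The short one, AGGAAG, was in 4 of 8 (Ccl6, Xcl1, Pf4 and Cxcl2), against 35.4% of all. In Ccl6 it lay at 2 places, -73 to -68 and -47 to -42 from the start site, in Xcl1 at -58 to -53 and in Pf4 at -9 to -4. The NF-kB motif was in 4 of 8 (Ccl1, Ccl9, Cxcl2 and Cxcl10), against 50.8%, and TGANTCA in 2 of 8 (Ccl9 and Cxcl10), against 7.81%. The window of Ccl3 held none of the 4 motifs. Matches of different motifs did not overlap each other, while this NF-kB motif matched both strands with a shift of up to 1 base in Ccl1, Cxcl2 and Cxcl10. Among the genes called higher and those not called, promoters with and without AGGAAG were both present. A match describes letters and is not a binding site.

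Ccl3, whose protein calls in monocytes, macrophages and T cells through Ccr1, gave the largest difference of the 10. It read 286.8 and 292.8 units in Ets1-deleted cells, against 101.2 and 93.3 in controls. The arrays of each genotype lay close together and the groups far apart, by 1.58 ± 0.11 on the log2 scale (SE, adjusted p = 6.91e-07 in limma), or 2.98-fold. It ranked 163rd in absolute size among the tested genes. With the 5th percentile of each array subtracted as a floor, the difference was 2.51. The control mean of Ccl3 was just under the limit for testing, so it was tested only because its Ets1-deleted signal was high. The same holds for Xcl1 but for none of the other 5 tested genes, of which 3 rose.

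Xcl1 is lymphotactin, which acts on dendritic cells that carry Xcr1. Its signal was 171.4 and 145.6 units in Ets1-deleted cells and 73.2 and 74.5 in controls. Both control values are below the array medians, so the signal is near the floor there, and both Ets1-deleted values are clear of it. The log2 difference was 1.10 ± 0.12 (limma adjusted p = 2.62e-05). With the array floor subtracted it was 2.51, where the Xcl1 signal left in the controls is close to the lowest value allowed (16 units).

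Ccl6 and Ccl9 encode CC chemokines of rodents that act mainly through Ccr1. Ccl6 read 247.3 and 233.7 units in Ets1-deleted cells, against 131.6 and 141.6 in controls. The difference was 0.82 ± 0.11 on the log2 scale (adjusted p from limma = 0.000166). Its second probe set gave 130.2 and 152.4 units in Ets1-deleted cells and 94.8 and 77.7 in controls, a log2 difference of 0.71. Neither probe set of Ccl6 had overlapping groups. Ccl9 had 305.1 and 355.5 units in Ets1-deleted cells and 178.3 and 197.4 in controls, so the log2 difference was 0.81 ± 0.12 (limma adjusted p = 0.000333). The second Ccl9 probe set was dimmer, with 130.0 and 143.5 units in Ets1-deleted cells, against 106.9 and 107.3 in controls. It differed by 0.35 and passed as well (limma adjusted p = 0.0411 with 1 row per probe set). Both probe sets of Ccl9 thus went the same way, by unequal amounts.

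Ccl5, or RANTES, which attracts T cells and eosinophils, was dim throughout, with 118.2 and 101.7 units in Ets1-deleted cells and 76.4 and 73.1 in controls. The groups were apart by a log2 difference of 0.55, and its mean fell short of the limit for testing. When all genes were fitted without that limit, Ccl5 was called higher (limma adjusted p = 0.00946), as were 8.52% of all genes. Ccl4, an attractant of T cells and monocytes, had 98.3 and 89.7 units in Ets1-deleted cells, against 82.2 and 74.0 in controls, a log2 difference of 0.27. Ccl1, the ligand of Ccr8, gave 91.1 and 97.7 units in Ets1-deleted cells and 81.5 and 86.1 in controls, a log2 difference of 0.17. Without the limit neither passed, with adjusted p of 0.113 for Ccl4 and 0.259 for Ccl1 in limma. All control values of these 3 genes were below the array medians, where summaries of this kind level off, so the differences may be understated.

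Pf4 is platelet factor 4, a CXC chemokine that binds heparin. It read 250.1 and 216.9 units in Ets1-deleted cells, against 113.5 and 131.2 in controls. The groups did not overlap, and the log2 difference was 0.93 ± 0.12 (limma adjusted p = 0.000132), or 1.91-fold. Cxcl10, an interferon-inducible ligand of Cxcr3, had 116.6 and 123.8 units in Ets1-deleted cells and 99.7 and 96.2 in controls. Its arrays did not overlap either, but the log2 difference of 0.29 ± 0.11 missed the threshold (limma adjusted p = 0.0675). Cxcl10 was called higher with the array floor subtracted (0.62, limma adjusted p = 0.015), with a trend of variance on level (adjusted p = 0.0465) and with means over probe sets (adjusted p = 0.0253). With single arrays left out its limma adjusted p lay between 0.0879 and 0.3.

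Cxcl2, which attracts neutrophils through Cxcr2, was the 1 gene of the 10 whose groups overlapped. It gave 91.8 and 95.7 units in Ets1-deleted cells, against 91.0 and 118.2 in controls. The second control array alone stood above the others. The log2 difference was -0.15 ± 0.13 (limma adjusted p = 0.475), and without that control array it was 0.04.

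**Figure D2:**
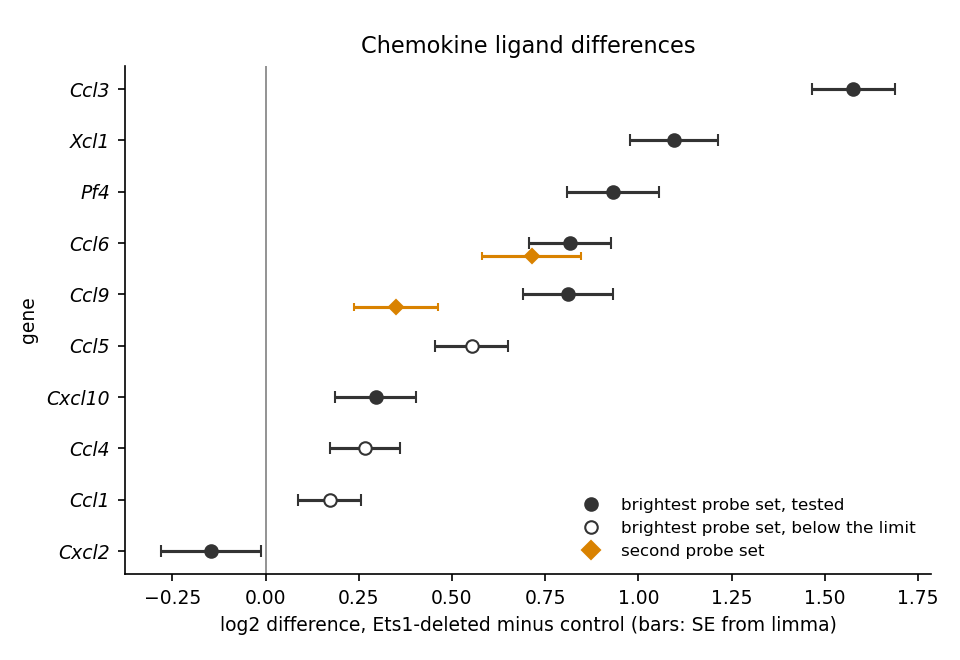
Log2 difference, Ets1-deleted minus control, for the 10 genes, with bars for the SE from limma. Filled circles are tested genes, open circles genes below the limit (SE from the fit of all genes), and diamonds the second probe sets of Ccl6 and Ccl9. Ccl3 is at 1.58, 9 of the 10 genes lie to the right of 0, and Cxcl2 lies at -0.15.

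Position sorts the genes into neighbours, by the RefSeq gene order of GRCm38.p6. Ccl5, Ccl9, Ccl6, Ccl3 and Ccl4 follow each other on chromosome 11 with no other coding gene between them. All 5 had Ets1-deleted values above the control values, as did 26.4% of the 18194 genes. The differences within this row went from 0.27 for Ccl4 to 1.58 for its direct neighbour Ccl3. The difference between neighbours was not tested. Ccl1 ends another row on chromosome 11, after Ccl2, Ccl7, Ccl11, Ccl12 and Ccl8. In that row the 4 tested genes, Ccl2, Ccl7, Ccl12 and Ccl8, all rose, while Ccl11 and Ccl1 were below the limit. Ccl11 read 64.9 and 73.0 units in Ets1-deleted cells, against 70.5 and 68.5 in controls. Pf4 and Cxcl2 belong to a row of 7 CXC genes on chromosome 5, where 5 were tested and 2, Pf4 and its neighbour Cxcl3, rose. These calls stand beside 13.9% of all tested genes called higher. Whether genes of a row changed together was not tested.

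**Figure D3:**
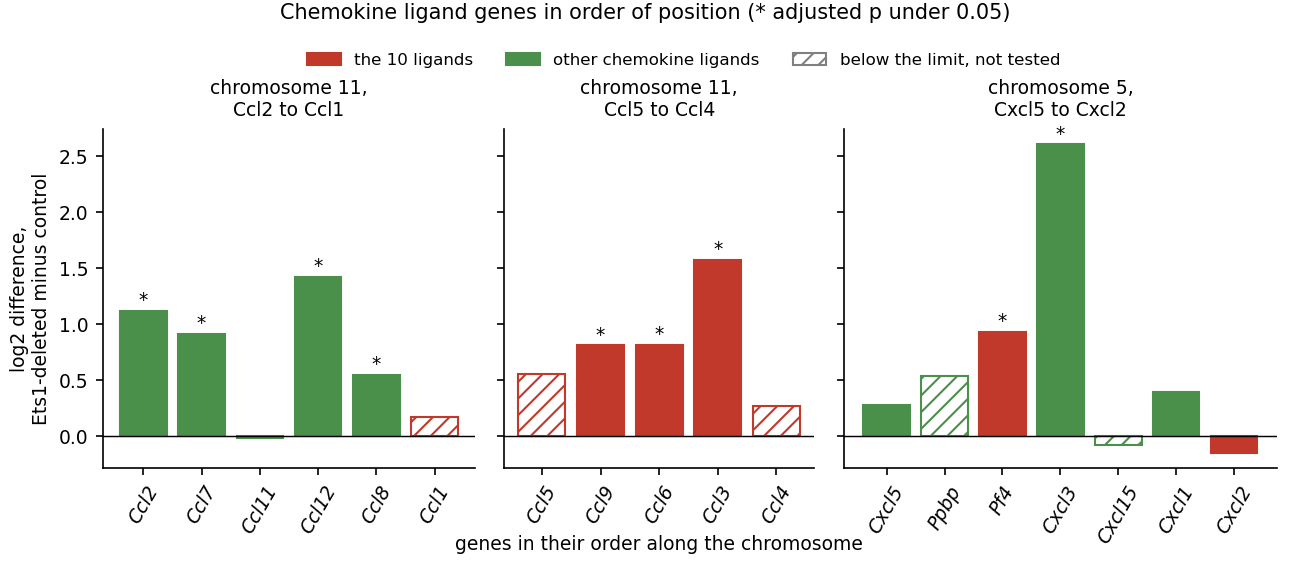
Bars show the log2 difference, Ets1-deleted minus control, of chemokine genes in their order along 3 stretches of chromosomes 11 and 5. Red bars are the genes described here, green bars other chemokine ligands, hatched bars were below the limit, and asterisks mark an adjusted p under 0.05 in limma. The bar of Cxcl3 reaches 2.61, and Ccl3 stands above its neighbours Ccl6 and Ccl4.

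Of 28 other chemokine ligands, 25 had a probe set of 1 symbol and 14 were tested. In this list 5 rose and 1 fell, where 13.9% and 12.8% of all tested genes were called in these directions. The median over the 25 measured genes was 0.10. Cxcl3, like Cxcl2 a neutrophil attractant, had 627.1 and 468.1 units in Ets1-deleted cells and 91.9 and 85.7 in controls, which is 2.61 ± 0.14 on the log2 scale (adjusted p from limma = 8.07e-08). The control mean of Cxcl3 was under the limit for testing, so it was tested only through its Ets1-deleted values. Ccl12, Ccl2 and Ccl7, monocyte attractants that signal through Ccr2, rose by log2 differences of 1.43, 1.12 and 0.92, and Ccl8, in mice a ligand of Ccr8, by 0.55. Cxcl12, the stromal ligand of Cxcr4, fell by 0.41 on the log2 scale, and its second bright probe set (-0.21) did not pass. Whether probes of one chemokine gene also bind transcripts of a related one was not analysed here.

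**Figure D4:**
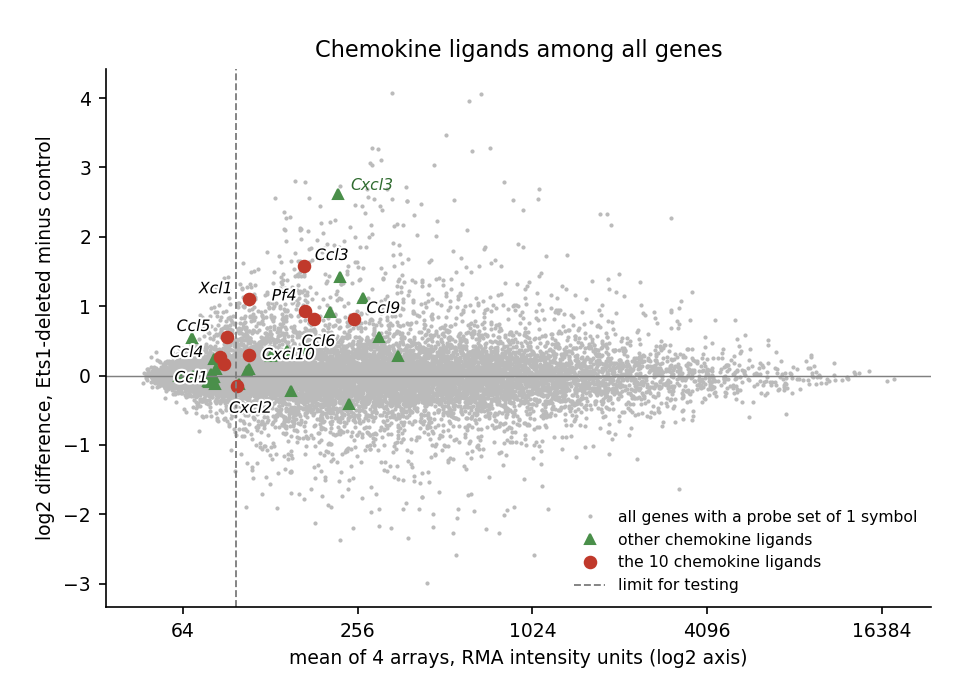
Log2 difference, Ets1-deleted minus control, against the mean of the 4 arrays (RMA intensity units, log2 axis) for all 18194 genes (grey), the other chemokine ligands (green triangles) and the 10 chemokine ligands (red, named). The 10 genes lie toward the left of the axis, with means up to 249 units, and 3 of them are left of the limit. Ccl9, the brightest of them, stands at percentile 64.4 of all genes by its mean.

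The genes whose 4 values were most like those of Ccl3, by Euclidean distance between log2 values centred on each gene's mean, were the glycosyltransferase gene Mgat5 (distance 0.06), the kinase gene Tec (0.07) and the protease gene Mmp8 (0.09). Their log2 differences were 1.63, 1.62 and 1.54. Likeness over 4 arrays in 2 groups rests almost wholly on the size of the difference.

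Receptors for these ligands were measured in the same cells. Ccr1, which binds Ccl3, Ccl5, Ccl6 and Ccl9, read 471.7 and 411.4 units in Ets1-deleted cells, against 376.9 and 401.2 in controls (log2 difference 0.18 ± 0.12, limma adjusted p = 0.295). Its second probe set went the other way (-0.12). Ccr8, the receptor of Ccl1, had 324.3 and 343.8 units in Ets1-deleted cells and 417.7 and 406.9 in controls (-0.30 ± 0.11, limma adjusted p = 0.0593). Ccr3, Cxcr2, Cxcr3 and Xcr1 were below the limit for testing, with 63.3 to 85.8 units in Ets1-deleted cells and 62.8 to 80.0 in controls. Of 13 tested chemokine receptors in all, where 13.9% and 12.8% of all tested genes were called higher and lower, 3 rose (Ccr2, Ccr6 and Ccr9, by 1.57, 1.03 and 0.67) and 2 fell (Ccr10 by 1.10 and Ccr7 by 0.47), and Ccr10 and Ccr7 are receptors of homing to skin and lymph nodes. Ccr6 and Ccr9 reached the limit for testing only through their Ets1-deleted values. The other Ccr9 probe sets, all below the limit, gave log2 differences of 0.69, -0.05, 0.79 and 0.12.

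Of 28 tested genes that act behind chemokine receptors, 2 rose and 13 fell, where 13.9% and 12.8% of all tested genes were called, with a median log2 difference of -0.26. Grk5, a kinase that switches off active receptors, read 123.0 and 149.4 units in Ets1-deleted cells, against 309.0 and 328.4 in controls, and fell by 1.23 ± 0.12. The G protein gene Gnaq fell by 0.88, the kinase genes Pik3cg and Pik3r5 by 0.85 and 0.65, and Rgs1, which shortens G protein signals, by 0.73. Arrb1, which encodes a beta-arrestin, rose by 1.00. These 6 genes had limma adjusted p values at or below 0.00106.

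Markers of other cell types that can make chemokines were measured in the same arrays, and their counts stand against 13.9% of all tested genes called higher and 12.8% called lower. Of 24 measured myeloid markers, 17 were tested, 13 rose and 1 fell. Ctsg, Fcgr3, S100a9, Cd74, Csf1r and Cd68 rose, by log2 differences of 1.51, 1.18, 1.14, 1.08, 1.01 and 0.90. The 1 that fell was Ctss, the brightest of these markers, by 0.84 (limma adjusted p = 0.000201). It read 1579 and 1371 units in Ets1-deleted cells, against 2707 and 2557 in controls. The macrophage receptor gene Csf1r had 536.0 and 448.2 units in Ets1-deleted cells and 259.2 and 228.7 in controls, while Itgam, Cd14, Fcgr1, Cebpa and 3 others were below the limit. The myeloid sum was 7369 to 7595 units in Ets1-deleted cells and 6193 to 6303 in controls. Of 16 mast cell and basophil markers, 11 were tested, 9 rose and 0 fell, and 11 were called higher when all genes were fitted without the limit, as were 8.52% of all genes. The mast cell protease gene Cpa3 had the largest difference of all tested genes, with 1497 and 1261 units in Ets1-deleted cells, against 85.9 and 78.3 in controls. Csf2rb, Mcpt2, Mitf, Mcpt1 and Kit rose by 2.34, 1.39, 0.67, 0.64 and 0.55, while the high-affinity IgE receptor genes Fcer1a and Ms4a2 were below the limit. Ms4a2 was called higher when all genes were fitted (0.53, limma adjusted p = 0.012). The 2 tested genes not called were Mcpt8 and Tpsb2, with log2 differences of -0.25 and 0.06. Mcpt8 was bright, with 1097 and 1193 units in Ets1-deleted cells, against 1337 and 1385 in controls. The mast cell sum was 4935 to 5267 units in Ets1-deleted cells and 2878 to 2881 in controls.

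Of 15 markers of NK cells and ILC1, 10 were tested, 5 rose and 2 fell. Cd160, Klrc1, Il12rb2 and Gzma rose by 3.06, 2.09, 0.93 and 0.59, Itga2 fell by 1.02 and Klrk1 by 0.46 on the log2 scale, and Ncr1, Eomes, Tbx21 and 2 others were below the limit. Their sum was 17497 to 19181 units in Ets1-deleted cells and 13863 to 14622 in controls, and most of it came from the granzyme genes Gzma and Gzmb. Of 14 T cell markers, 9 were tested, 5 rose and 1 fell, with sums of 7688 to 7930 units in Ets1-deleted cells and 4174 to 4309 in controls. Cd3e, Cd247, Cd3d, Cd28 and Cd3g rose by 3.28, 3.11, 2.58, 2.18 and 0.50, and Zap70 fell by 1.13. Cd247 went the other way with 1 of its bright probe sets (-0.21). The other probe sets of Zap70 gave -0.07 and -0.42 (limma adjusted p = 0.731 and 0.0293 with 1 row per probe set). Cd4, Cd8a, Cd8b1, Cd5 and Trat1 were below the limit. Trat1 was called higher when all genes were fitted without the limit (0.67, limma adjusted p = 0.00262), as were 8.52% of all genes. Among the called markers, the control means of 2 myeloid genes (Adgre1 and Cd33), 3 mast cell genes (Cpa3, Mitf and Hdc), Klrc1 and Cd3e were under the limit, so these were tested only through their Ets1-deleted values. The part of these cells in the chemokine differences was not tested.

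Platelet and megakaryocyte markers, of interest for Pf4, summed to 6158 to 6512 units in Ets1-deleted cells and 3918 to 4407 in controls, and Itgb3 made up most of that sum. Of 13 measured, 5 were tested, 2 rose and 0 fell, where 13.9% and 12.8% of all tested genes were called in these directions. The 2 were Itgb3 (4316 and 4204 units in Ets1-deleted cells, 2441 and 2006 in controls) and Nfe2 (204.4 and 211.1 units in Ets1-deleted cells, 79.5 and 85.3 in controls), and Nfe2 reached the limit only through its Ets1-deleted values. The second Itgb3 probe set differed by 0.29 and did not pass (limma adjusted p = 0.0853 with 1 row per probe set). Itga2b (0.29) and Fli1 (-0.07) were tested and not called. Gp9, part of the platelet receptor for von Willebrand factor, read 121.4 and 103.9 units in Ets1-deleted cells and 112.5 and 114.7 in controls, while Gp5, Gp6, Gp1bb, Tubb1, Clec1b and 3 others were below the limit. Ppbp, the platelet chemokine gene next to Pf4, was below the limit as well, at 80.8 and 84.5 units in Ets1-deleted cells, against 54.5 and 59.2 in controls. Like Ccl5, Ppbp was called higher when all genes were fitted (0.54, limma adjusted p = 0.00584). For OP9 stroma and fibroblasts, a possible source of Ccl2, Ccl7 and Cxcl12, 2 of 17 tested markers rose (Timp3 by 2.55 and Serpinh1 by 0.66) and 1 fell (Pdgfrb by 0.85). The stromal sum was 4628 to 4679 units in Ets1-deleted cells and 4211 to 4472 in controls. Timp3 alone read 878.7 and 750.6 units in Ets1-deleted cells, against 126.4 and 151.7 in controls. The median log2 difference over the 23 measured stromal markers was -0.08. The part of platelets or stroma in the chemokine differences was not tested.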

How the data were processed

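RNA of sorted ICOS-positive cells was amplified and labelled with biotin, per the labels' protocols. The deposited intensity values were made by the authors with RMA, per the submitters' processing notes. The labels name no software version and no later scaling. The values run from 39.5 to 23291 and were therefore read as linear and turned into log2. Of 45101 probe sets, 34958 had 1 symbol in the platform annotation, 932 had several and 9211 had none. Genes were represented by the probe set with the highest mean of log2 values. The limit for testing was the 50th percentile of all probe set means. The two-sided tests of Ets1-deleted minus control came from limma 3.58.1 in R 4.3.3 (lmFit, eBayes), with 2 residual and 9.75 prior degrees of freedom. Adjusted p-values are Benjamini-Hochberg values across the whole set of tested genes. Tested on simulated data for these 10873 genes, it recovered 36 of 50 genes changed by 0.5 and 100 of 100 changed by 1 (log2), with 11 false calls. The simulated arrays had independent normal noise and far fewer changed genes than the 2900 called here. These counts may therefore not hold for the real arrays.

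Members, lists, tests, alternatives and naming rule were all chosen with earlier results of these data known. Named were the 10 ligands, their receptors, Ets1, the 3 genes most like Ccl3 and, in each list, up to 6 called genes of smallest p. Marker genes below the limit, Adgre1, Cd33, Ctss, Hdc, Mcpt8 and Tpsb2 were named after their values were seen. The same holds for Gata3, Il7r, Il5, Il13, Icos, Nmur1, Ptgdr2, Gzmb, Ccl11, Itga2b, Fli1, Gp9 and Ppbp. The alternatives were other normalizations, filters, summaries over probe sets, variance models and thresholds, a subtracted array floor, a replicate block and leaving out each array. The number of arrays limits the precision.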

Additional observations from a re-analysis of the deposited data

How the results depend on the processing

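All 16 alternatives were run. Ccl3, Xcl1, Pf4, Ccl6 and Ccl9 were called higher in limma under each alternative that tested them, with log2 differences from 1.52 to 2.51, 0.98 to 2.51, 0.83 to 1.43, 0.76 to 1.20 and 0.58 to 1.06. The number of the 10 ligands called higher was 5 in the main fit. It was 6 without the filter, where Ccl5 was added. With means over probe sets, the array floor subtracted, the variance trend or the adjusted p of 0.1 it was also 6, with Cxcl10 added. It was 1 with the filter at the 70th percentile, where 1 (Ccl9) of the 10 was bright enough to be tested. Cxcl10 crossed the threshold under 4 alternatives, 1 of them the looser adjusted p of 0.1. The 2900 genes called in all became 4797 with 1 row per probe set (19845 rows) and 1349 with a limit of 1.5-fold, and 2238 to 2736 with 1 array left out, which takes the remaining array of a group to vary as the other group does. Without either control array the fit gave nearly the same SE to all members, so those p-values rest on variance shared across genes. Arrays of the 2 groups share replicate numbers, but no label says that a number pairs them, and deviations from the group means correlated at 0.167. With the replicate block, 3252 genes and 5 of the 10 ligands were called, and Cxcl10 had a limma adjusted p of 0.0575. Signals near the array floor limit what can be said of Ccl1, Ccl4, Ccl5 and Cxcl2.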
